A study of Homo sapiens with 6 samples.

Results

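Levels of 10 transcripts that encode chains of cytokine receptors were followed in 2 human clear cell renal cell carcinoma lines after knockdown of ZNF395, a zinc finger protein. The members were IL7R, IL4R, IL15RA, IL13RA1, IL13RA2, IL6R, IL6ST, IL1R1, IFNAR1 and IFNGR1. All 10 were found by symbol among the 32357 genes of the deposited count table, and all 10 passed the filter on low counts that left 20144 genes. The members were chosen by symbol, from a list drawn up with the fold changes between knockdown and control libraries already known, among them that of IL7R. Folds against the control libraries are therefore given as descriptions: no p is given for a member, the count past the edgeR threshold stands beside the share of all genes, and nothing is read from either. Tests are given for hairpin 3 against hairpin 1, for the lines, and for the difference between lines.

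The lines were 786-O and A-498, both from clear cell renal carcinoma, the commonest kidney cancer. Each had been transduced with a retroviral short hairpin construct carrying a non-targeting control, ZNF395 hairpin 1 (shRNA1) or ZNF395 hairpin 3 (shRNA3), packaged in HEK293T cells, and selected with puromycin. All 6 libraries, controls included, thus come from transduced and selected cells, with 1 library for each line and construct. No spread between repeat cultures was measured, so p-values rest on the spread between these libraries, with the lines as replicates of a hairpin or the constructs as replicates of a line.

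Library totals ran from 77534125 to 99147218 counts. Of its control level, ZNF395 kept 25.6% (hairpin 1) and 13.99% (hairpin 3) in 786-O, and 21.4% and 21.0% in A-498. FBXO16, a gene of the same strand, shares 34.9% of the merged exons of ZNF395, and how shared reads were counted is not given. A set of 8 renal tubule and carcinoma markers summed to 1279 to 2025 CPM (counts scaled to library size), with the kidney transcription factor PAX8 between 156.7 and 256 CPM in every library. The largest part of the sum in every library was KRT8, at 588.8 to 1325 CPM. EPCAM, of the same set, lay between 0.184 and 2.00 CPM. The carcinoma marker CA9 was at or near 0 in 786-O, at no more than 0.0127 CPM, and stood at 0.399 to 1.68 CPM in A-498. Since IL7R is best known from T cells, 12 immune markers were examined. All 10 present in the table, including PTPRC, CD3D and CD8A, lay under 1 CPM in every library, with a sum of 0.466 to 1.85 CPM. The other two, CD3E and CD3G, were not among the genes of the table. In these bulk libraries fewer cells of a kind and less RNA per cell cannot be told apart.

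Cytokine receptors bind a soluble ligand outside the cell and join chains into a signalling complex. The interleukin and interferon receptors described here carry no kinase of their own. Except for the interleukin-1 receptor and the decoy IL13RA2, their complexes rely on JAK kinases bound to the tails of some of the chains. These kinases phosphorylate STAT transcription factors. The interleukin-1 receptor instead recruits MYD88 and IRAK kinases, which lead to NF-kB. Several chains are shared: IL6ST, also called gp130, serves a whole family of interleukin-6-like cytokines, and IL4R pairs with IL13RA1 to bind interleukin-4 and interleukin-13. In kidney epithelium these receptors are known from inflammation and injury.

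The stretches upstream of IL7R and IL6ST are shown first, because these genes moved in opposite directions between the hairpins. Each run covers the 250 bases before the RefSeq start in GRCh38.p14, read along the gene's strand. IL7R lies at chr5:35856641-35856890 on the plus strand and IL6ST at chr5:55994964-55995213 on the minus strand. Capitals mark TATAAA on either strand in IL7R and CCGGAA, the core bound by ETS factors, in IL6ST.
IL7R: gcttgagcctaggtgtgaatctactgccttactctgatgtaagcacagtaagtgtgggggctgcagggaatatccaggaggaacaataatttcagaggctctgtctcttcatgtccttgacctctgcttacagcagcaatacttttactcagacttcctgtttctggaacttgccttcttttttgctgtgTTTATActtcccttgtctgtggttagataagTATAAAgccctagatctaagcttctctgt
IL6ST: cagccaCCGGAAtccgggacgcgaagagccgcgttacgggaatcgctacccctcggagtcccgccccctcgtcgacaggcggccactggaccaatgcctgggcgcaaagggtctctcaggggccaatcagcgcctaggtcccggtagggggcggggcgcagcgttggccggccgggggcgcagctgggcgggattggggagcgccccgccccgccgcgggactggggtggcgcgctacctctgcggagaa

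In IL7R TATAAA begins 29 bases before the RefSeq start. The GENCODE gene, whose position is given below, begins upstream of this window, so in that annotation the window lies inside the gene, and that of IL6ST reaches a short way into its window. Both strands were searched, and 10.7% of 35116 windows of this length in RefSeq hold TATAAA and 14.5% hold CCGGAA. Of the members, 9 matched the table, with 17 windows, some of them overlapping. Motifs of the NF-kB and IRF (ISRE-like) type were in none of these 17, against 1.40% and 3.02% of all windows. The GAS motif of STAT factors was in a window of IL1R1 and of IL15RA, against 6.57% of all windows. The AP-1 motif TGANTCA was in 3 windows of IL15RA (6.57% of all), an overlapping pair of which holds the same site. CCGGAA was also in both windows of IFNAR1, and TATAAA also in a window of IL1R1. A match in letters is a description and no evidence of binding.

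IL7R, the chain that binds interleukin-7 and, with CRLF2, the cytokine TSLP, lies at chr5:35852695-35879603 on the plus strand in GRCh38. Its level in the 786-O libraries was 18.6 CPM (control), 48.9 CPM (hairpin 1) and 90.2 CPM (hairpin 3). The A-498 libraries held 17.9, 34.4 and 53.1 CPM in the same order, which is kept below. All 4 knockdown libraries were higher than both controls, the controls of the lines stood close together, and hairpin 3 gave the higher level in each line. Relative to the control of the same line the 786-O level was 2.63-fold (hairpin 1) and 4.85-fold (hairpin 3), and the A-498 level 1.92-fold and 2.96-fold. As a description of the values known when the members were chosen, the log2 fold change over both lines in edgeR was 1.16 (SE 0.182) with hairpin 1 and 1.92 (SE 0.186) with hairpin 3. In the authors' deposited table, which sets control over knockdown, it is -1.12 (SE 0.255), while the other 9 members lie there between -0.45 (IL13RA2) and 0.38 (IL1R1).

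Between the hairpins IL7R was higher with hairpin 3 than with hairpin 1 (log2 0.76, SE 0.179, adjusted p = 0.0459 in edgeR's quasi-likelihood test). The ratio of hairpin 3 to hairpin 1 was 1.84 in 786-O and 1.54 in A-498. This call was lost without the 786-O hairpin 1 library (adjusted p = 0.150 in edgeR), the 786-O hairpin 3 library (0.0762) or the A-498 hairpin 1 library (0.141). ZNF395 itself was lower with hairpin 3 than with hairpin 1 in 786-O, at 13.5 against 24.7 CPM, and nearly equal in A-498, at 14.3 against 14.5 CPM. The part of the remaining ZNF395 in the difference was not tested.

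**Figure D1:**
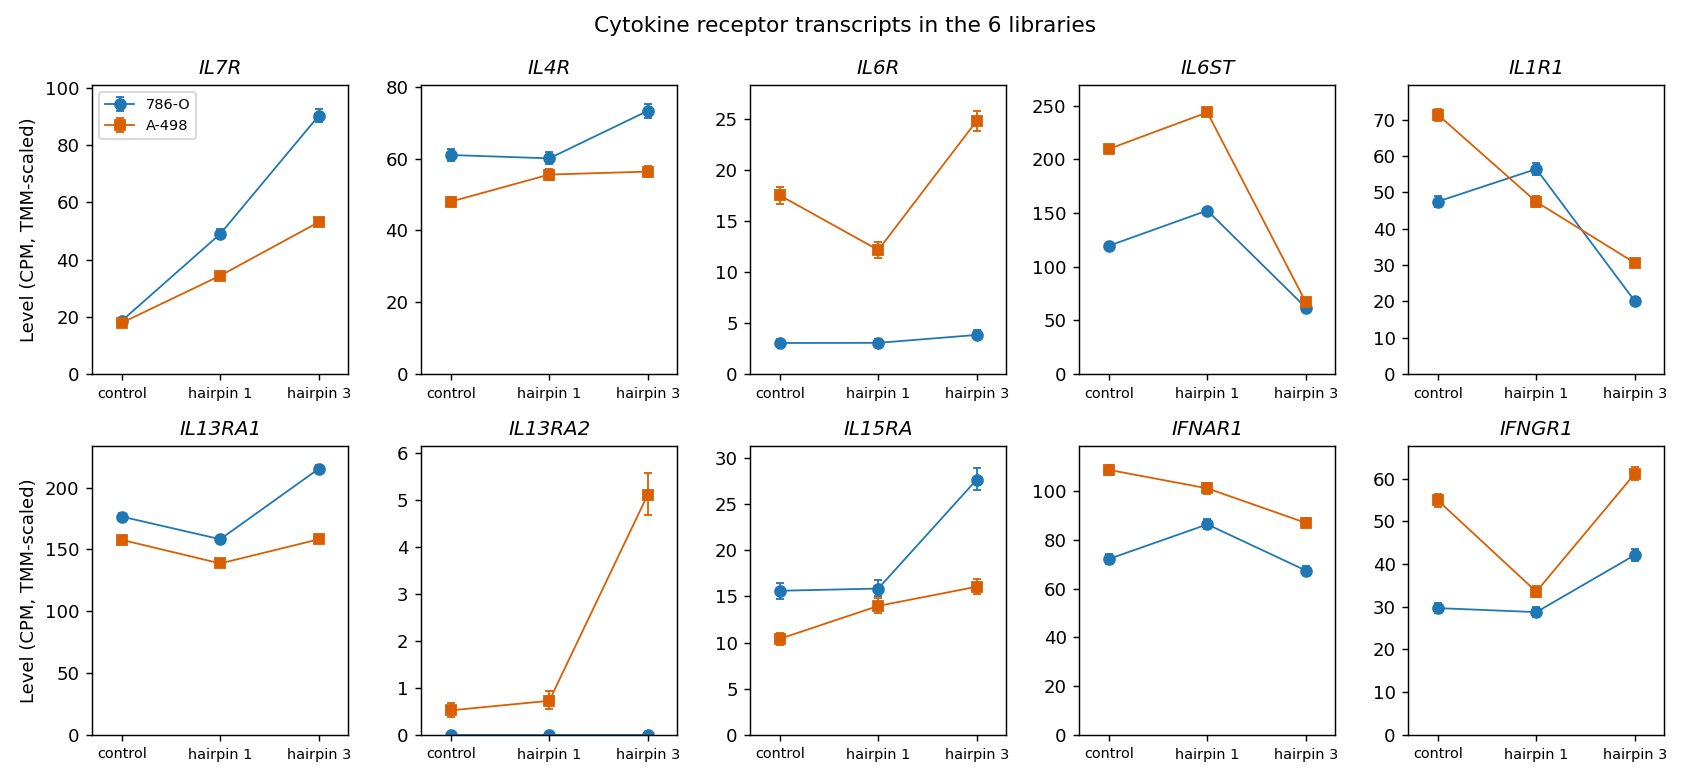
Level of each of the 10 receptor transcripts in CPM (vertical axis, starting at 0) for control, hairpin 1 and hairpin 3 (horizontal axis), with 786-O as blue circles and A-498 as orange squares, 1 library per point and 95% counting intervals as bars. IL7R is higher in all 4 knockdown libraries than in the controls, and IL6ST and IL1R1 are lowest with hairpin 3 in both lines.

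IL4R, the shared chain for interleukin-4 and interleukin-13, varied little. It stood at 61.0, 60.1 and 73.3 CPM in 786-O and at 48.0, 55.6 and 56.4 CPM in A-498. The highest library of a line exceeded the lowest by 1.22-fold in 786-O and 1.17-fold in A-498. No difference between the hairpins was called (log2 0.15, SE 0.125, adjusted p = 0.473 in edgeR).

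IL15RA, which binds interleukin-15 and presents it to neighbouring cells, stood at 15.6, 15.9 and 27.7 CPM in 786-O and at 10.4, 13.97 and 16.1 CPM in A-498. Hairpin 3 gave the highest level in each line, 1.77-fold the control in 786-O and 1.54-fold in A-498. With IL7R it was 1 of 2 members above the control in all 4 knockdown libraries, as were 12.8% of all genes tested, and 0 members were below it in all 4, as were 14% of all genes. The hairpin 1 library of 786-O exceeded its control by only 1.02-fold. The difference between the hairpins did not pass (log2 0.50, SE 0.182, adjusted p = 0.132 in edgeR).

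IL13RA1, the signalling chain that joins IL4R, stood at 176.6, 158.3 and 215.3 CPM in 786-O and at 157.8, 138.7 and 158.2 CPM in A-498. Hairpin 1 gave the lowest level in each line. The difference between the hairpins was not called (log2 0.32, SE 0.130, adjusted p = 0.167 in edgeR). Its relative IL13RA2 binds interleukin-13 tightly with a short tail and is known as a decoy receptor. IL13RA2 had 0 counts in all 3 libraries of 786-O, which allows up to 0.0379 to 0.0400 CPM. In A-498 it had 52 counts in the control (0.522 CPM, 95% Poisson interval 0.390 to 0.684), 58 with hairpin 1 (0.724 CPM, 0.550 to 0.936) and 500 with hairpin 3 (5.11 CPM, 4.67 to 5.58). The hairpin 3 library thus stood 9.79-fold above the control and 7.06-fold above hairpin 1, well outside counting error.

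Since 786-O had no count, the edgeR value for IL13RA2 between the hairpins (log2 2.80, SE 0.417, adjusted p = 0.0270) rests on the 2 knockdown libraries of A-498 and has no replicate in the other line. DESeq2 gave an adjusted p = 0.685 with a log2 fold change of 1.89, and without the 786-O hairpin 1 library the edgeR call was lost (adjusted p = 0.0672), as it was without either of the A-498 knockdown libraries (adjusted p = 1). Whether the gain belongs to the hairpin or to this 1 library cannot be told apart.

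IL6ST, the signalling chain of the interleukin-6 family, lies at chr5:55935095-55994993 on the minus strand in GRCh38. The 786-O libraries held 119.5, 152.4 and 62.0 CPM of it, again in the order control, hairpin 1, hairpin 3. The A-498 libraries held 209.7, 243.8 and 67.0 CPM. Hairpin 3 gave the lowest level in each line, below all 4 other libraries, and brought the lines to nearly the same value, whereas hairpin 1 gave the highest. Against the control of its line the hairpin 3 level was 51.9% in 786-O and 31.9% in A-498, and the hairpin 1 level 127.6% and 116.2%. IL6ST was lower with hairpin 3 than with hairpin 1 (log2 -1.57, SE 0.187, adjusted p = 0.00971 in edgeR). Leaving out any 1 of the 6 libraries kept this call, with adjusted p from 7.38e-04 to 0.0465 in edgeR. An antisense gene shares 8.58% of the merged exons of IL6ST, and the sources used here do not say whether the counting used strand.

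IL6R, the chain that binds interleukin-6 itself, stood at 3.05, 3.06 and 3.84 CPM in 786-O and at 17.5, 12.2 and 24.8 CPM in A-498. Within each line hairpin 3 gave the highest level of IL6R, where IL6ST had its lowest. The difference between the hairpins was 1.25-fold in 786-O and 2.04-fold in A-498 and did not pass (log2 0.69, SE 0.210, adjusted p = 0.0872 in edgeR). It passed in DESeq2 (adjusted p = 0.0363) and in edgeR with no filter on low counts (0.0414).

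IL1R1, the signalling receptor for interleukin-1, lies at chr2:102064544-102179874 on the plus strand in GRCh38. It stood at 47.5, 56.4 and 20.1 CPM in 786-O and at 71.4, 47.4 and 30.6 CPM in A-498. Both hairpin 3 libraries were lower than the other 4. They held 42.3% and 42.9% of the control level in 786-O and A-498, whereas hairpin 1 held 118.9% and 66.4%, on opposite sides of the control. IL1R1 was lower with hairpin 3 than with hairpin 1 (log2 -1.08, SE 0.224, adjusted p = 0.0339 in edgeR). The call was lost without the 786-O hairpin 1 library (log2 -0.63, adjusted p = 0.105 in edgeR) or the 786-O hairpin 3 library (-0.83, 0.0524).

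IFNAR1, a chain of the type I interferon receptor, stood at 72.2, 86.4 and 67.5 CPM in 786-O and at 108.8, 101.2 and 87.0 CPM in A-498. Hairpin 3 gave the lowest level in each line, by 1.28-fold and 1.16-fold against hairpin 1. This difference was not called (log2 -0.29, SE 0.133, adjusted p = 0.211 in edgeR). IFNGR1, the ligand-binding chain of the interferon-gamma receptor, stood at 29.7, 28.7 and 42.1 CPM in 786-O and at 54.9, 33.5 and 61.2 CPM in A-498. Hairpin 1 gave the lowest level in each line and hairpin 3 the highest. The difference narrowly missed the threshold (log2 0.70, SE 0.173, adjusted p = 0.0515 in edgeR). It passed in DESeq2 (adjusted p = 0.0117) and in edgeR with no filter on low counts (0.00926).

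Of the 10 members, 4 were thus called between the hairpins by edgeR at an adjusted p under 0.05. IL7R and IL13RA2 were higher with hairpin 3, and IL6ST and IL1R1 were lower. Among all genes tested 9.48% were called, 4.09% up and 5.4% down. The median log2 fold change of the members was 0.409, against -0.00835 over all genes, and 7 of 10 were positive. The members were chosen with results of these libraries known, so no test was made of the group.

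**Figure D2:**
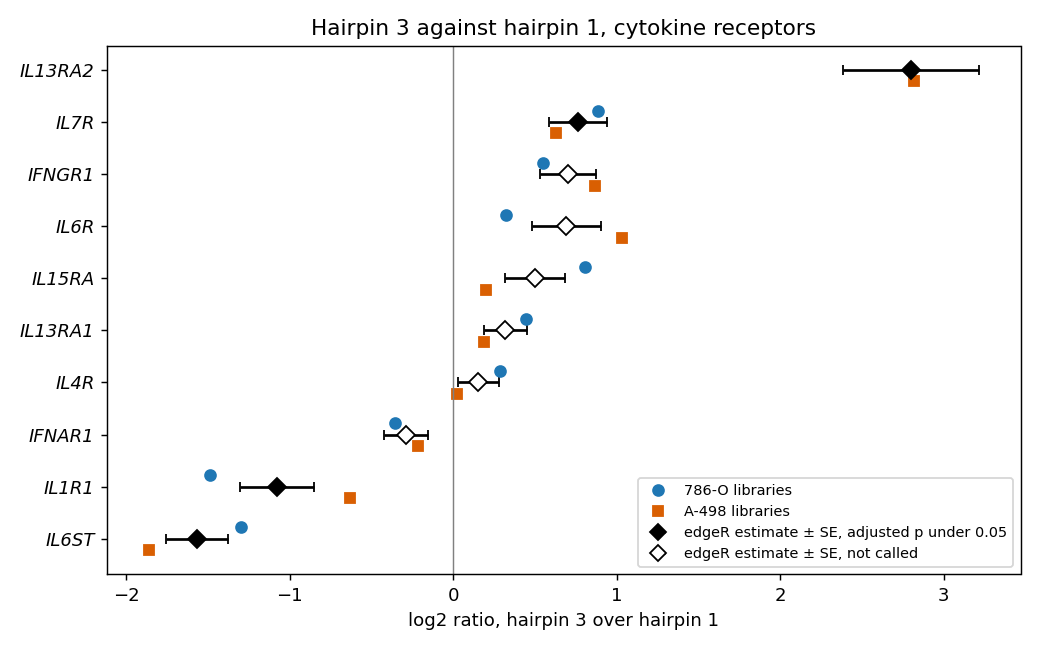
Log2 ratio of hairpin 3 to hairpin 1 (horizontal axis) for each receptor, as measured in 786-O (blue circles) and A-498 (orange squares), with the edgeR estimate over both lines and its standard error as diamonds, filled where the adjusted p was under 0.05. IL6ST and IL1R1 lie left of 0 in both lines, IL7R lies right of 0 in both, and IL13RA2 has a value in A-498 only.

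Against the controls, 0 members were called with hairpin 1, as were 0.149% of all genes (0.0397% up and 0.109% down). With hairpin 3, 2 were called up (IL7R and IL13RA2) and 2 down (IL6ST and IL1R1), beside 2.55% and 4.16% of all genes, or 6.71% in all. With both hairpins pooled 0 members were called in edgeR, beside 0% of all genes. An unadjusted p under 0.05 was found for 1013 of 20144 genes, about the share that this threshold passes when nothing differs. ZNF395 was not called either, though its level fell to between 13.99% and 25.6% of control in the knockdown libraries. In this fit the difference between the hairpins stays in the residual spread, so that share does not show that nothing differs. With the hairpin as a block 1 member, IL7R, was called (log2 1.54), beside 0.129% of all genes, and DESeq2 also called IL7R alone among the members, beside 0.443% of 19183 genes. These are the contrasts that were known when the members were chosen, and the comparisons with the 2 hairpins share the same controls, so the counts are descriptive.

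The next comparison set the lines side by side, over all constructs. IL6R was higher in A-498 (log2 2.46, SE 0.301, adjusted p = 0.00107 in edgeR), at 18.2 ± 6.36 CPM (SD, n = 3) against 3.32 ± 0.451 CPM (SD, n = 3) in 786-O. Every A-498 library exceeded every 786-O library, and the call held without any 1 of the 6 libraries. IL13RA2 was detected in A-498 only. Set against the count allowed by 0 in the 786-O library of the same construct, its level in A-498 was at least 13.8-fold higher in the control, 18.9-fold higher for hairpin 1 and 127.8-fold higher for hairpin 3. IL13RA2 passed the filter on low counts through A-498 alone, so its call between the lines (adjusted p under the threshold in edgeR) was fixed by the filter and is not a result. Of the other 9 members 1, IL6R, was called, while 47.2% of all genes were called, 25.7% higher and 21.4% lower.

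A few markers of other cells also differed between the lines. The 5 fibroblast markers summed to 5.53 to 7.12 CPM in 786-O, mostly LUM, and to 18.7 to 41.0 CPM in A-498, mostly COL1A1. The 3 packaging cell markers present in the table summed to 0.107 to 0.753 CPM in 786-O and to 44.2 to 45.2 CPM in A-498, nearly all of it NEFM, while the 4 endothelial markers in the table lay under 1 CPM in all libraries. The sums thus follow LUM, higher in 786-O, and COL1A1 and NEFM, higher in A-498. DCN, PDGFRA, COL3A1, LIN28B and INA stayed under 1 CPM in every library. The part of other cells in the differences between the lines was not tested.

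In 3 members the A-498 libraries lay wholly above those of 786-O (IL6R, IFNAR1 and IL13RA2, the last again fixed by the filter), as did 31.1% of all genes. In 2 they lay wholly below (IL4R and IL13RA1), as did 28% of all genes. The gap was narrow for IL13RA1 (158.2 to 158.3 CPM) and IFNAR1 (86.4 to 87.0 CPM). In the other 5 members the lines overlapped. With the hairpin as a block 8 members, IL13RA2 included, were called between the lines, beside 61.9% of all genes. The 6 that joined were IFNAR1 (log2 0.40), IFNGR1 (0.55) and IL6ST (0.54), higher in A-498, and IL7R (-0.45), IL4R (-0.28) and IL15RA (-0.52), lower, with adjusted p from 0.0127 to 0.0490 in edgeR. In this fit the difference between the hairpins, large for IL6ST and IL7R, leaves the residual spread.

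For no member was the response to knockdown called different between 786-O and A-498. In edgeR's test of that difference 0 of 10 members and 0% of all genes were called, and DESeq2 called 0 genes. An unadjusted p under 0.05 was found for 159 of 20144 genes, fewer than this threshold passes when nothing differs. Here too the difference between the hairpins stays in the residual spread, so this share does not show that the lines respond alike. Leaving out IL13RA2, which has no fold in 786-O, the estimates ran from -0.62 for IL7R (SE 0.647) to 0.09 for IL4R (SE 0.377). The standard error exceeded the estimate for each of these 9 members, so differences of this size could not be resolved.

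Compared per length of transcript, as CPM per kilobase of merged exons in GENCODE 29, IL13RA1 had the highest level of the 10 in each line. Its range was 36.2 to 49.3 (786-O) and 31.7 to 36.2 (A-498), with no overlap with the next gene, IL6ST (6.67 to 16.4 and 7.21 to 26.2). In 786-O the ranges of IL6ST, IFNAR1, IL4R, IFNGR1 and IL7R overlapped, so their order is not resolved. IL1R1 and IL15RA followed, with ranges that overlapped each other and those of IL6ST and IL7R. IL6R was clearly lower in 786-O, at 0.472 to 0.595 CPM per kilobase, and IL13RA2 was not detected there. In A-498 IL6R (1.88 to 3.85) and IL13RA2 (0.321 to 3.14) again had the lowest means, but their ranges overlapped each other and that of IL15RA (2.86 to 4.42). The counting used another annotation, so these lengths are approximate.

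**Figure D3:**
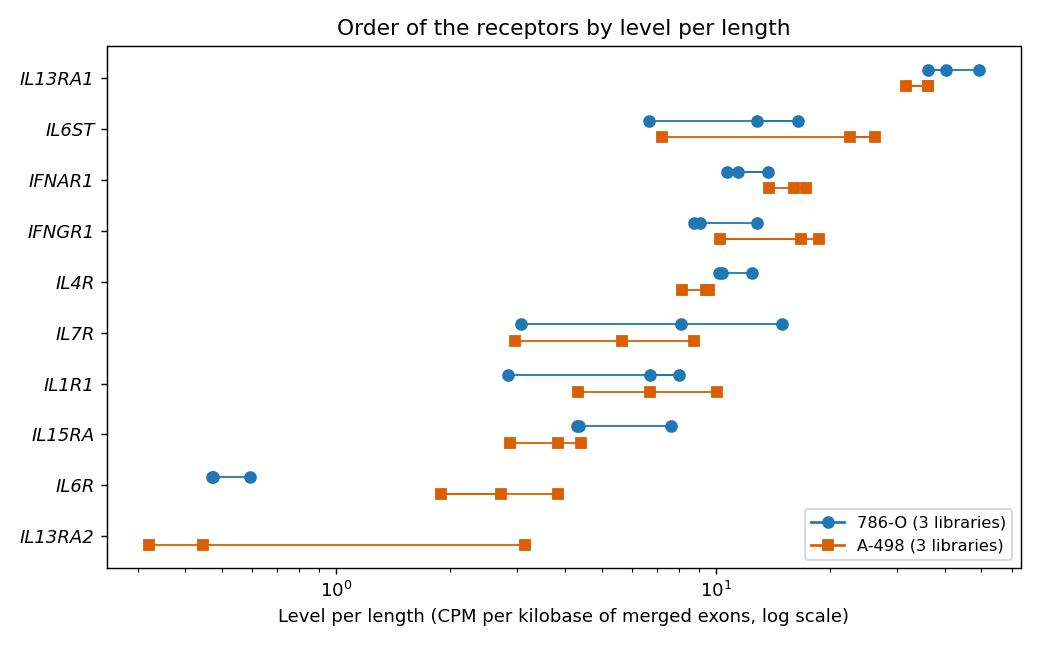
Level of each receptor in CPM per kilobase of merged exons (horizontal axis, log scale), with 1 point per library and a line over the range of the 3 libraries of 786-O (blue circles) and A-498 (orange squares). IL13RA1 lies to the right of all others in both lines, and IL13RA2 has no point for 786-O, where it had 0 counts.

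Because these receptors work as pairs, levels per kilobase were also set against those of their partner chains. The ratio of IL6ST to IL6R was 27.2, 34.6 and 11.2 in the 786-O libraries and 8.31, 13.9 and 1.87 in the A-498 libraries. The ratio was lowest with hairpin 3 in both lines. IL1RAP, the accessory chain that IL1R1 needs to signal, went the other way from IL1R1. It stood at 24.8, 24.1 and 89.2 CPM in 786-O and at 19.7, 17.4 and 73.8 CPM in A-498, and was higher with hairpin 3 than with hairpin 1 (log2 1.99, SE 0.127, adjusted p = 0.00390 in edgeR). The ratio of IL1RAP to IL1R1 per kilobase was 0.319, 0.261 and 2.72 in 786-O and 0.169, 0.224 and 1.48 in A-498, so that the more abundant transcript of the pair was IL1R1 in 4 libraries and IL1RAP in the 2 with hairpin 3.

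The remaining pairs are given by their ranges. The ratio of IFNAR2 to IFNAR1 ran from 0.271 to 0.576 over the 6 libraries, though 44.2% of the merged exons of IFNAR2 are shared with another gene of the same strand. That of IFNGR2, the second chain of the interferon-gamma receptor, to IFNGR1 ran from 0.699 to 2.66, with the highest value of each line in its hairpin 1 library. The ratio of IL13RA1 to IL4R stayed between 3.36 and 4.43. The ratio of IL13RA1 to the decoy IL13RA2 in A-498 was 113, 71.3 and 11.5. For IL7R, the partners IL2RG, the common gamma chain, and CRLF2 stayed at no more than 0.225 and 0.512 CPM in any library. Of the merged exons of IL2RG, 50.8% are shared with another gene of the same strand, so its level may be undercounted.

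**Figure D4:**
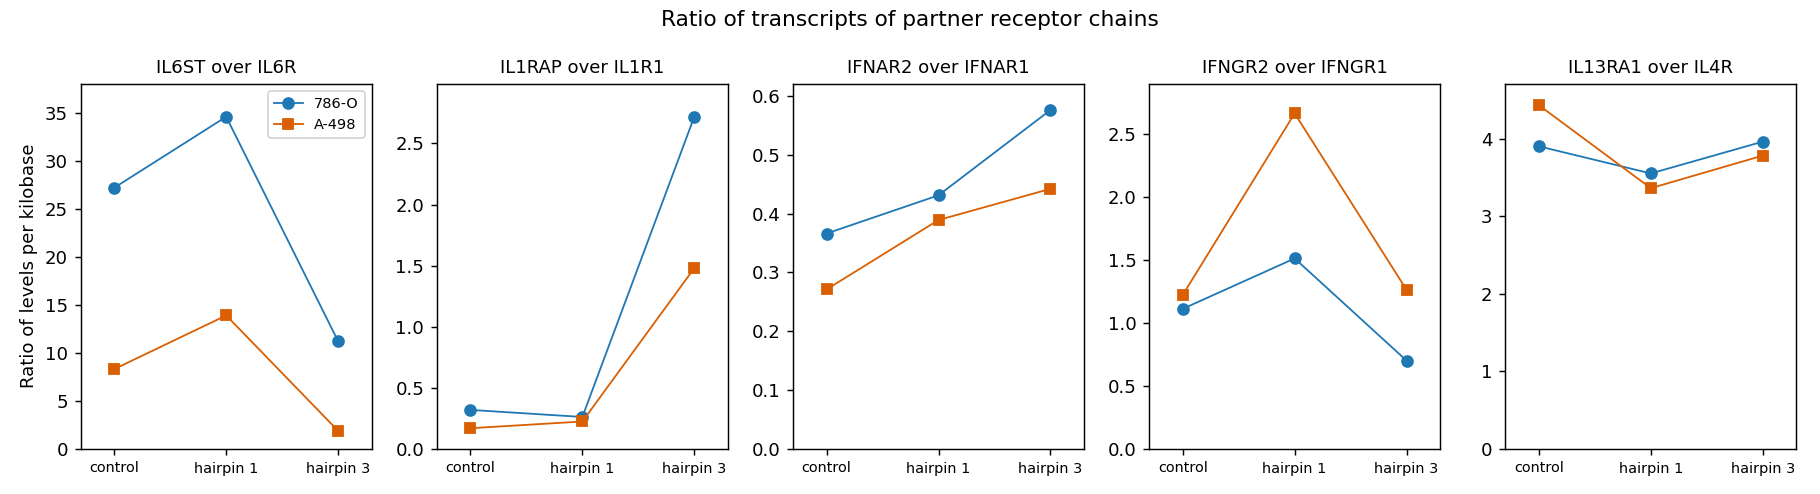
Ratio of the levels per kilobase of partner receptor chains (vertical axis, starting at 0) for control, hairpin 1 and hairpin 3 (horizontal axis) in 786-O (blue circles) and A-498 (orange squares), 1 library per point. The ratio of IL6ST to IL6R is lowest and that of IL1RAP to IL1R1 highest with hairpin 3 in both lines, while IL13RA1 to IL4R stays between 3.36 and 4.43.

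Among 44 other receptor genes, 41 were in the table and 31 were tested. Between the hairpins 3 were called higher with hairpin 3 (IL1RAP, IL20RB and LIFR) and 2 lower (OSMR and IL12RB1), beside 4.09% and 5.4% of all genes. LIFR and OSMR, the partners of IL6ST for leukemia inhibitory factor and oncostatin M, went opposite ways, at log2 0.66 (adjusted p = 0.0277) and -0.81 (adjusted p = 0.0440) in edgeR. In 786-O OSMR stood at 181.6 CPM (hairpin 1) and 123.5 CPM (hairpin 3), and at 152.1 and 70.9 CPM in A-498. IL20RB, a chain of the receptors for interleukins of the interleukin-20 group, was higher with hairpin 3 (0.83, adjusted p = 0.0335). IL12RB1 stayed under 0.3 CPM in every library, with 2 counts for hairpin 3 in 786-O and 6 in A-498. It passed the filter on low counts through its control and hairpin 1 libraries alone. Its call is therefore not a result, and the count of 2 lower is a description. OSMR, LIFR and IL12RB1 were named after their values were seen. The median over the 31 was -0.189, against -0.00835 over all genes.

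Between the lines 15 of these 31 were called higher in A-498 and 5 lower, beside 25.7% and 21.4% of all genes. Some of the 15, such as GHR, IL31RA and CRLF2, passed the filter through A-498 alone. Among the 5, CSF2RB and IL21R passed it through 786-O alone, so the counts are descriptions. IL27RA, a receptor chain that pairs with IL6ST for interleukin-27, stood at 25.7 to 46.1 CPM in A-498 and at most 0.354 in 786-O (log2 7.52, SE 0.303, adjusted p = 3e-05 in edgeR). IL20RB was also higher in A-498 (3.48, adjusted p = 4.10e-04). IFNLR1, the type III interferon receptor, was lower (-4.11, adjusted p = 4.20e-04 in edgeR). GHR, the growth hormone receptor, had 1 to 3 counts per library in 786-O and 2.39 to 2.88 CPM in A-498. IL31RA had 1 count in all of 786-O and 2.68 to 5.39 CPM in A-498. The calls of GHR and IL31RA between the lines were fixed by the filter and are not results. No fold is given for either.

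Of 21 genes for ligands of the members, 13 were tested. Between the hairpins 0 were higher and 2 lower with hairpin 3, beside 4.09% and 5.4% of all genes: IL11, a cytokine that signals through IL6ST (log2 -2.50, SE 0.501, adjusted p = 0.0311 in edgeR), and IL1B, the ligand of IL1R1 (-2.21, SE 0.418, adjusted p = 0.0268). In 786-O IL11 stood at 5.78 CPM (hairpin 1) and 2.17 CPM (hairpin 3), and at 8.41 and 0.746 CPM in A-498. In 786-O IL1B had 11 counts for hairpin 1 and 2 for hairpin 3, and it stood at 4.46 and 1.03 CPM in A-498, so that its fold rests mainly on A-498. Between the lines 6 were higher in A-498 and 1 lower, beside 25.7% and 21.4% of all genes, with IL6 (log2 1.38, adjusted p = 0.00523 in edgeR) and IFNE (2.54, adjusted p = 0.00128) among the higher. The others called higher were IFNB1, IL1A, IL1B and IL1RN, the gene of the interleukin-1 receptor antagonist. They had 1 to 11 counts per library in 786-O and passed the filter through A-498 alone. Their calls were thus fixed by the filter and are not results, the count of 6 is a description, and no fold is given. IL7, the ligand of IL7R, ranged from 6.32 to 10.6 CPM, while TSLP lay at no more than 0.139 CPM.

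The 33 genes of signalling downstream were all tested. Between the hairpins STAT3, which IL6ST activates, was lower with hairpin 3 (log2 -0.73, adjusted p = 0.0339 in edgeR), and IRS2, an adaptor of the interleukin-4 receptor, was higher (0.67, adjusted p = 0.0222). Both were named after their values were seen, and no other gene of the list was called, beside 4.09% and 5.4% of all genes up and down. In 786-O STAT3 stood at 151 CPM (hairpin 1) and 91.8 CPM (hairpin 3), and at 287.5 and 170.9 CPM in A-498. Between the lines 12 were higher in A-498 and 4 lower, beside 25.7% and 21.4% of all genes. JAK3, the kinase of the common gamma chain (log2 2.33), the cytokine signalling inhibitor SOCS2 (1.11) and STAT4 (2.70) were higher. PIAS2 (-1.22) and IRAK1, a kinase of the interleukin-1 pathway (-1.11), were lower. Adjusted p-values of these named genes ran from 0.00106 to 0.00364 in edgeR. STAT5A, also among the 4 called lower, had only 3 to 12 counts per library in A-498. It passed the filter through 786-O alone, so its call was fixed by the filter, is not a result, and is given no fold.

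Against the control, again as a description, hairpin 1 called 0 genes of these 3 lists, beside 0.149% of all genes. Hairpin 3, beside 2.55% of all genes up and 4.16% down, called 2 other receptors up (IL1RAP and IL20RB) and 3 down (IL1R2, OSMR and LEPR), 3 ligands up (IL6, IL1RN and IFNB1) and no gene of the signalling list. IFNB1 had 1, 2 and 2 counts in the 786-O libraries and 10, 71 and 73 in the A-498 libraries. It passed the filter on low counts through the A-498 knockdown libraries alone, so its call was fixed by the filter and is not a result. Those not named before were picked after their values were seen.

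The profile of IL7R over the 6 libraries was finally compared with that of 11026 genes whose mean reached 5 CPM, by the Euclidean distance between log2 CPM profiles centred on their own means. The nearest was PTX3, a secreted pattern recognition protein (distance 0.608, against a median of 2.17), at 7.26, 21.3 and 33.8 CPM in 786-O and 8.62, 16.2 and 15.3 CPM in A-498. NEGR1 (0.780), ARNTL2 (0.821), TMED4 (0.845) and PAG1 (0.921) followed. Among the other members IL15RA came closest, at rank 109 (distance 1.34), and IL6R (3.90), IL6ST (3.54) and IL1R1 (3.35) were among the most distant.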

How the data were processed

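The authors deposited unnormalized read counts, in whole numbers, by gene symbol for 6 libraries. Tools and builds named by the submitters' processing notes are STAR and DESeq2, with hg19 and hs37d5. Counter, annotation and strand setting: not given in the sources used here. The file also carries the authors' own comparison. Per the file headers this holds a mean signal, a log2 fold change, its error, a score (the Wald statistic) and a p-value for each gene, of which the log2 values of the members were read.

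The test was edgeR 4.0.16, run in R 4.3.3 (TMM scaling, filterByExpr, quasi-likelihood F test, Benjamini-Hochberg adjustment over 20144 genes, call at an adjusted p under 0.05). Residual degrees of freedom were 3 for knockdown and line (terms for line and status), 2 for the hairpins (line and construct) and 2 for the difference between lines (4 means). Standard errors came from the F statistic, and CPM is TMM-scaled. Positions and exon lengths come from GENCODE 29 (GRCh38), promoters from RefSeq (GRCh38.p14), and no coordinate was converted. Poisson intervals (95%) and the 3 counts that a count of 0 allows cover counting error only. In simulated counts for the line comparison over 20144 genes, 34 of 100 genes changed by a log2 of 1 and 96 of 100 changed by 2 were recovered. Only these genes were given a difference, whereas 47.2% of all genes were called between the lines in the data. The adjustment was therefore stricter in the simulation, and the recovered shares do not give the sensitivity of the test in the data. Alternatives were DESeq2 1.42.0, its size factors in edgeR, no filter, the hairpin as a block, and each library left out. Numbers in the labels of the knockdown libraries are hairpin numbers, so each marks 1 reagent used in both lines; the controls carry none and stood outside the block. The difference between hairpins correlated between the lines over 11027 genes (Pearson 0.577, Spearman 0.556).

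The members and lists were chosen with earlier results of these data known. The named genes are the 10 members, at most 6 called genes per list by smallest p, and the 5 genes nearest to IL7R. Motifs and partner pairs were chosen after the data were seen.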

Additional observations from a re-analysis of the deposited data

How the results depend on the processing

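With 1 library per line and construct, calls depend on few residual degrees of freedom. Of the members, 0 were called between knockdown and control, and 1 (IL7R) with DESeq2 or with the hairpin as a replicate block. With hairpin 1 against control 0 became 1 (IL7R) with DESeq2 or no filter on low counts. Between the lines 2 became 8 with the block, IL13RA2 counted in both. The block changed no count of members within the lines or in the difference between them, where it stayed 0. The comparisons of single hairpins hold the hairpin as a term already, so no further block could be fitted. Leaving out 1 library gave 0 to 1 members called with hairpin 1, 1 to 5 with hairpin 3, 1 to 5 between the hairpins and 2 to 3 between the lines, and 0 in the other 4 comparisons. The lowest count with hairpin 3 came without the A-498 control, and the lowest between the hairpins without the 786-O hairpin 1 library. In each of these comparisons the share of all genes called was also lowest without that same library. Both fits have 1 residual degree of freedom and a lone library assumed to vary like the others. Every fit of line and construct with 1 library left out has the same 1 residual degree of freedom. It therefore does not set the low counts apart, and their cause was not tested. Over all genes, leaving out 1 library moved the count called between the hairpins from 1910 to 249 (without the 786-O hairpin 1 library) and to 3312 (without the 786-O hairpin 3 library), while DESeq2 called 2956 and a fit with no filter 3117. DESeq2 and no filter called 448 and 478 genes in place of 30 with hairpin 1, and 2599 and 2654 in place of 1351 with hairpin 3. Between knockdown and control DESeq2 called 85 genes and the block 26, in place of 0.

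Outside the contrasts against the control, signs turned only when a library was left out, and among called values only for IL13RA2. Its log2 fold change between the hairpins ran from -0.219 to 2.84, the lowest without the A-498 hairpin 3 library. Between the lines IL6ST ran from -0.00518 to 1.09 and IL1R1 from -0.0901 to 0.79. In the difference between lines the ranges were -0.678 to 0.323 for IL6R, -1.49 to 0.556 for IL6ST, -1.11 to 0.413 for IL1R1, -0.327 to 0.0892 for IL13RA1 and -0.249 to 0.526 for IL15RA. A contrast within a line could not be estimated without its control.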
